A study of Homo sapiens with 28 samples.

Results

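Genes that sense and repair damaged DNA were followed in A549 and H1299, established non-small cell lung cancer lines treated with the DNA methyltransferase inhibitors azacitidine or decitabine. The set held 52 genes chosen by symbol. Of these, 50 had a probe set annotated to them alone and 49 had one bright enough to test, among 8024 genes tested in all. BRCA2 and FANCA were not analysed here, and ERCC4 was below the brightness limit.

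RNA from 28 samples was measured on 28 one-colour Affymetrix arrays, 2 per group. In each line the groups were the vehicle (DMSO), azacitidine at 0.3, 1 and 3 µM, and decitabine at 0.3, 1 and 3 µM. All drug groups were exposed for 48 h, and fresh drug was added every 24 h. The first A549 decitabine 3 µM array is labelled as a repeat. Nothing in the labels says that the 2 arrays of a group came from separate cultures, so p-values measure only the spread between these samples, and the number of arrays limits the precision.

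Both drugs are cytidine analogs that are built into DNA and trap DNA methyltransferases there as protein adducts. Azacitidine is a ribonucleoside that also enters RNA, whereas decitabine is the deoxyribonucleoside. Cells deal with such lesions in layers: kinases such as ATR and ATM signal the damage, base excision and nucleotide excision remove altered bases and bulky adducts, and homologous recombination, the Fanconi anaemia proteins and end joining handle crosslinks and breaks. The question the design addresses is how transcripts of these genes compare between the drugs over a dose range.

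Signals are MAS5 values on a linear scale. Differences are in log2(signal + 32), so those of dim genes are drawn toward 0, and SE is the standard error from a limma fit to all arrays (n = 2 per group). A gene is said to have risen, fallen or changed where its Benjamini-Hochberg adjusted p over all 8024 genes was under 0.05. Each vehicle group is shared by 6 comparisons of its line, so these comparisons are not independent of each other. In bulk cultures a change in RNA per cell and a change in the share of cells that carry the transcript cannot be told apart.

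The lines matched their labels where they could be checked. CDKN2A, known to be deleted in A549, lay between 33.6 and 106 in A549 and between 745 and 1658 in H1299. AKR1B10, known to be high in A549, lay between 14820 and 21410 there and at 67.1 or less in H1299. Of the epithelial markers, KRT8 and KRT18 were above the array median on all 14 arrays of each line, while CDH1 was above it on 11 A549 arrays and on 0 in H1299. KRT19 and EPCAM were above it on 6 H1299 arrays each. With decitabine 3 µM in H1299 KRT19 was 143 and 133, against 1.35 and 1.10 in vehicle, and EPCAM was 280 and 247, against 9.23 and 33.2. The leukocyte markers PTPRC, CD14 and CD3D and the endothelial markers PECAM1 and CDH5 were below the array median on every array, and VWF was above it on 1 H1299 array. Of the fibroblast markers, COL1A1 was above it on all arrays (212 to 331 in A549, 123 to 185 in H1299), DCN on 3 A549 arrays and 1 H1299 array, and LUM on 0. Their part in the results was not tested. Within groups, replicate arrays correlated at 0.989 to 0.994. A549 vehicle replicate 1 and A549 azacitidine 3 µM replicate 1 had the highest lower quartiles of signal (28.2 and 25.7, against 18.0 to 24.3 on the other arrays).

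The 3′ to 5′ signal ratio of the ACTB control, a sign of RNA integrity and labelling, differed between A549 groups. It was 3.40 and 3.08 in vehicle, 4.90 and 5.36 with azacitidine 3 µM and 3.42 to 4.91 on the 6 decitabine arrays. In H1299 it was 4.59 and 6.05 in vehicle and 6.29 and 6.21 in azacitidine 3 µM and 3.59 to 5.93 on the decitabine arrays, while the GAPDH ratio was 0.976 and 0.944 in vehicle and 1.21 and 1.18 with azacitidine 3 µM. The part of this in the drug results was not tested.

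Against vehicle, the number of repair genes that changed grew with dose for both drugs, as did the share of all genes that changed. With azacitidine 3 µM the total share of repair genes that changed was close to that of all genes in both lines. In A549, 0 genes rose and 0 fell with azacitidine 0.3 µM, where 1.17% and 1.27% of all genes tested rose and fell and 7 repair genes had an unadjusted p under 0.05 in limma. At 1 µM, 10 rose and 6 fell (13.1% and 12.1% of all genes), and at 3 µM 10 rose and 9 fell (22.1% and 16.2%). With decitabine, 3 rose and 0 fell at 0.3 µM (4.31% and 3.38% of all genes), 4 rose and 7 fell at 1 µM (9.78% and 6.79%), and 6 rose and 16 fell at 3 µM (15% and 10.8%). Of these counts, the 16 falls with decitabine 3 µM lie farthest above the share over all genes. Leaving out 1 array moved several of these counts by more than 1.5 times. The 16 changes with azacitidine 1 µM became 10, 9, 9 and 7 without vehicle replicate 1 or 2 or azacitidine 1 µM replicate 1 or 2. The 3 with decitabine 0.3 µM became 1, 0 and 1 without vehicle replicate 1 or decitabine 0.3 µM replicate 1 or 2. The 11 with decitabine 1 µM became 7, 7 and 6 without vehicle replicate 1 or decitabine 1 µM replicate 1 or 2. The 22 with decitabine 3 µM became 13 without decitabine 3 µM replicate 1, and the 0 with azacitidine 0.3 µM became 2 without vehicle replicate 2.

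In H1299, 4 repair genes rose and 1 fell with azacitidine 0.3 µM (2.46% and 3.22% of all genes), 6 rose and 13 fell at 1 µM (19.9% and 15.4%), and 8 rose and 17 fell at 3 µM (32.3% and 21.6%). With decitabine, 2 rose and 4 fell at 0.3 µM (8.9% and 8.9%), 2 rose and 10 fell at 1 µM (11.8% and 11.6%), and 2 rose and 13 fell at 3 µM (16.3% and 14.6%). Falls therefore outnumbered rises at 3 µM of either drug in H1299, while among all genes rises were the more frequent. The median difference of the repair genes with azacitidine 3 µM was -0.115, against 0.079 over all genes. Centring each array on its median moved the median of all genes to -0.096 in that comparison and the split of the repair genes to 6 rises and 24 falls, with 23.1% of all genes higher and 31.3% lower. In A549 with azacitidine 3 µM the same centring gave 9 rises and 9 falls, with 16.5% of all genes higher and 20.9% lower. For H1299 with decitabine 3 µM it gave 2 rises and 13 falls, with 15.1% of all genes higher and 15.8% lower. After centring, rises were thus no longer the more frequent among all genes in H1299 at 3 µM of either drug. Without H1299 vehicle replicate 1, the 19 changes with azacitidine 1 µM became 12, the 5 with azacitidine 0.3 µM became 1, the 6 with decitabine 0.3 µM became 2 and the 12 with decitabine 1 µM became 6. The 5 also became 2 or 1 without azacitidine 0.3 µM replicate 1 or 2, and the 12 became 6 without decitabine 1 µM replicate 2.

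**Figure D1:**
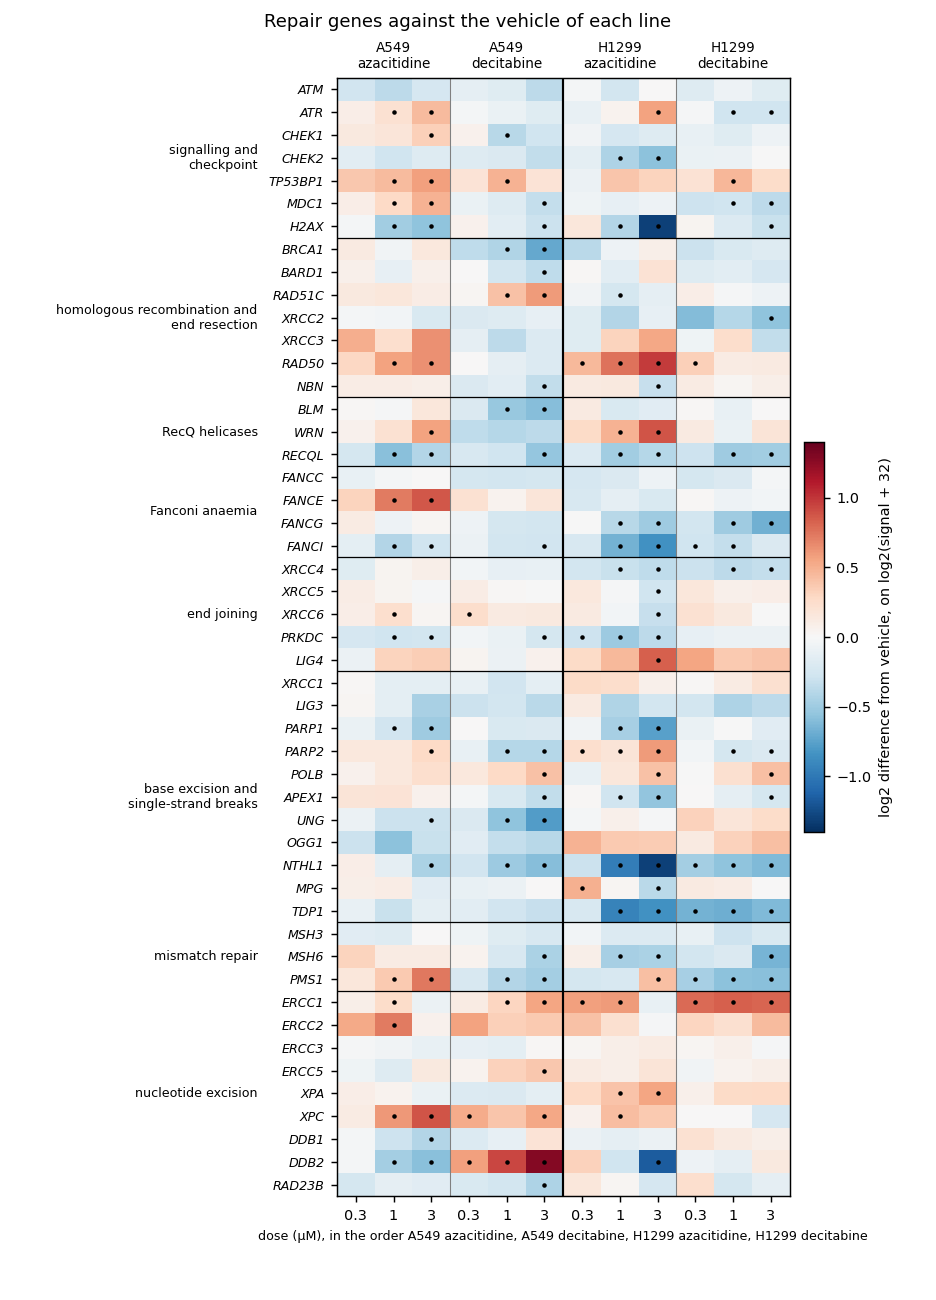
Difference of each of 49 repair genes from the vehicle of its line, on the log2(signal + 32) scale, with genes in rows by role and the 3 doses of each drug and line in columns; red is higher, blue lower, and a dot marks an adjusted p under 0.05. DDB2 is red across A549 decitabine and blue at the top azacitidine dose of both lines, and the row of ERCC1 is red at all 3 decitabine doses in H1299.

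Nucleotide excision repair held the gene with the largest rise, DDB2, which recognises ultraviolet lesions together with DDB1. In A549 vehicle its signal was 866 and 797. With decitabine it reached 1408 and 1114 at 0.3 µM, 1650 and 1594 at 1 µM, and 1973 and 2175 at 3 µM. With azacitidine it was 771 and 855, then 542 and 639, then 588 and 503. All decitabine arrays therefore lay above both vehicle arrays, and all azacitidine arrays at 1 and 3 µM lay below them. The differences with decitabine were 0.57, 0.94 and 1.29 (SE 0.114, adjusted p = 6.84e-08 in limma at 3 µM). With azacitidine 3 µM DDB2 fell by 0.58 (adjusted p = 0.000357).

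In H1299 the DDB2 signal was far lower to start with, 260 and 243 in vehicle, a difference from A549 of -1.60 (SE 0.114, adjusted p = 5.66e-11 in limma). It was 304 and 258 with decitabine 3 µM, a difference of 0.14 with a 95% interval from -0.097 to 0.377. With azacitidine 3 µM it was 91.8 and 97.2 and fell by 1.16 (adjusted p = 2.53e-08). Azacitidine 3 µM thus lowered DDB2 in both lines, and decitabine raised it in A549. At 3 µM azacitidine minus decitabine was -1.87 in A549 (adjusted p = 4.51e-11) and -1.30 in H1299 (adjusted p = 4.6e-09). The responses differed between lines by -1.15 with decitabine (adjusted p = 4.14e-05) and by -0.58 with azacitidine (adjusted p = 0.00886). The latter was lost without A549 azacitidine 3 µM replicate 1 (-0.48) and with a larger pseudocount (-0.26).

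XPC, the damage sensor that starts global genome repair, rose in A549 with both drugs. Its signal was 660 and 538 in A549 vehicle, 962 and 1312 with azacitidine 3 µM, and 812 and 964 with decitabine 3 µM, so neither treated group overlapped vehicle. The differences were 0.88 (SE 0.155, adjusted p = 0.000121) and 0.55 (adjusted p = 0.0126 in limma). The rise with decitabine lost its call without vehicle replicate 2 (0.41) or decitabine 3 µM replicate 2 (0.43). In H1299 XPC was 320 and 299 in vehicle and 254 and 262 with decitabine 3 µM, a difference of -0.24 that did not pass. The responses to decitabine differed between lines by -0.78 (adjusted p = 0.0171), which did not pass without A549 vehicle replicate 2 (-0.64), A549 decitabine 3 µM replicate 2 (-0.66), H1299 vehicle replicate 1 (-0.74) or H1299 decitabine 3 µM replicate 1 (-0.76). In H1299 azacitidine exceeded decitabine by 0.60 at 3 µM (adjusted p = 0.00245).

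ERCC1, the partner of the XPF endonuclease that cuts 5′ of a lesion, rose at every decitabine dose in H1299. Its signal in H1299 vehicle was 2402 and 2619. With decitabine it was 4515 and 4200 at 0.3 µM, 4112 and 4917 at 1 µM, and 4700 and 4195 at 3 µM. With azacitidine it was 3775 and 3734 at 0.3 µM and 3761 and 3856 at 1 µM, and at 3 µM it was 2345 and 2321. By this probe set the rise with decitabine was about as large at the lowest dose as at the highest, with differences of 0.79, 0.83 and 0.82 (SE 0.092, adjusted p = 7.52e-07 at 3 µM in limma). With azacitidine the differences were 0.58, 0.60 and -0.10, and the last did not pass (95% interval -0.294 to 0.088).

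In A549 ERCC1 started lower, at 902 and 950, and H1299 vehicle exceeded A549 vehicle by 1.41 (SE 0.092, adjusted p = 1.44e-11 in limma). It was 1407 and 1348 with decitabine 3 µM, above all 6 azacitidine arrays, and rose by 0.56 (adjusted p = 0.000135). Azacitidine 3 µM gave ERCC1 signals of 821 and 930, a difference of -0.08 that did not pass. Azacitidine minus decitabine at 3 µM was -0.64 in A549 (adjusted p = 7.7e-06) and -0.92 in H1299 (adjusted p = 3.48e-08). The second probe set of ERCC1 rose with decitabine 3 µM in both lines too, by 0.39 in A549 and 0.51 in H1299. In H1299 it also rose with decitabine 1 µM (0.48) and did not pass with 0.3 µM of decitabine (0.24) or azacitidine (0.34). Its drug difference at 3 µM passed in H1299 (-0.31) and not in A549 (-0.16).

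XPA, a scaffold of the incision complex, rose in H1299 with azacitidine 3 µM from 189 and 209 to 321 and 294 (0.55, adjusted p = 0.000369 in limma). Its response differed between lines by 0.64 (adjusted p = 0.00495). DDB1 fell in A549 with azacitidine 3 µM (-0.41, adjusted p = 0.0405), and not without vehicle replicate 2 (-0.29) or azacitidine 3 µM replicate 1 (-0.31). Over the 9 tested nucleotide excision genes, 4 rose and 1 fell with decitabine 3 µM in A549 (15% and 10.8% of all genes), with a median of 0.37, and 1 rose and 2 fell with azacitidine 3 µM (22.1% and 16.2%). That median is the value of ERCC2, which was below the array median on every A549 array (15.7 and 57.7 in vehicle), so it is weakly supported. In H1299 1 rose and 0 fell with decitabine 3 µM (16.3% and 14.6%), and 1 rose and 1 fell with azacitidine 3 µM (32.3% and 21.6%).

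Start-site regions are printed for 6 genes of contrasting behaviour: DDB2 and XPC, which rose with decitabine in A549, ERCC1, which rose at every decitabine dose in H1299, UNG, which fell with decitabine in A549, and PMS1 and ATR, which rose with azacitidine 3 µM in both lines. Each is 250 bases before to 50 after the first RefSeq start listed for the gene on GRCh38.p14, 5′ to 3′ on the gene's strand. Capitals mark the 5-letter CCAAT box bound by NF-Y on either strand (CCAAT or ATTGG) and the E2F words TTTCCCGC, TTTGGCGC, TTTCGCGC and TTTGCCGC on either strand. In these windows no marked CCAAT stretch overlaps a marked E2F stretch.
DDB2, chr11:47214204-47214503, plus strand: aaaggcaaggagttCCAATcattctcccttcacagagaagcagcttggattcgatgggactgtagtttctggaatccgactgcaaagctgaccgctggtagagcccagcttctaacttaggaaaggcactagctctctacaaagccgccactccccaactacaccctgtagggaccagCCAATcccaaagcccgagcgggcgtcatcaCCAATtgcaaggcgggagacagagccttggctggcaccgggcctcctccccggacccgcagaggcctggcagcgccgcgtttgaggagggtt
XPC, chr3:14178552-14178851, minus strand: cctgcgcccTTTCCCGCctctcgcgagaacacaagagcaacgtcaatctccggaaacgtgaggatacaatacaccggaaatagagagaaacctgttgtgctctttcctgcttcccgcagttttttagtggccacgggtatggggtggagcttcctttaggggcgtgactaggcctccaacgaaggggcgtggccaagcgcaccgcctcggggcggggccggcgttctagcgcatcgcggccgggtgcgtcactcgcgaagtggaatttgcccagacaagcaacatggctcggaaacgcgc
ERCC1, chr19:45451498-45451797, minus strand: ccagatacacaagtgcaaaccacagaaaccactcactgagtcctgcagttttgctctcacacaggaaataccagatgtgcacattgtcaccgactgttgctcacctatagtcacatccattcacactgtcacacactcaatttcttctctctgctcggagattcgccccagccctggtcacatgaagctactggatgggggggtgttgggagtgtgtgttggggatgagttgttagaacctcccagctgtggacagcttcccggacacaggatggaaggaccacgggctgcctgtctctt
UNG, chr12:109097347-109097646, plus strand: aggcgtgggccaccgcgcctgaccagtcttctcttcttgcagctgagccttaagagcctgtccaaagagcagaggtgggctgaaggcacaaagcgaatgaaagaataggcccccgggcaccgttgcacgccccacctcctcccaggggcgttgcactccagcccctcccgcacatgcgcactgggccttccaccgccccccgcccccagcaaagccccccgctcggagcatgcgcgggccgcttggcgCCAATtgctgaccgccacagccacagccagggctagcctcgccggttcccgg
PMS1, chr2:189784200-189784499, plus strand: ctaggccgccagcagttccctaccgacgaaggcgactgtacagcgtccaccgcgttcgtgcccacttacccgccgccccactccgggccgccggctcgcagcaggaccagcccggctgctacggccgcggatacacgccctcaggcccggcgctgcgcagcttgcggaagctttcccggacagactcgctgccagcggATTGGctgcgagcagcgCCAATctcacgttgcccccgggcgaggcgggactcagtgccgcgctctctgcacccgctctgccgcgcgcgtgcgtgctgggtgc
ATR, chr3:142578684-142578983, minus strand: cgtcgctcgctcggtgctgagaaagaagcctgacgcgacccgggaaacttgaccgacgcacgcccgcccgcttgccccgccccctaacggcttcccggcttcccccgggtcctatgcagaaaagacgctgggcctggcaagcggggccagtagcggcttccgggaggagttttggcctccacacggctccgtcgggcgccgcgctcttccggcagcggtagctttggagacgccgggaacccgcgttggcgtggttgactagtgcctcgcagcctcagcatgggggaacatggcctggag

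DDB2 held 3 CCAAT boxes, PMS1 held 2 and UNG held 1 at its start, while XPC held 1 E2F word and ERCC1 and ATR held neither. Of all 27305 promoters of the table, 35.7% held a CCAAT box and 3.33% an E2F word, against 22 and 7 of the 46 repair genes that matched the table. CpG pairs, the sites that DNA methyltransferases act on, numbered 5 in the ERCC1 window, 14 in DDB2, 22 in UNG, 29 in XPC, 34 in ATR and 40 in PMS1. The median was 14 over all promoters and 27.5 over the 46, and the ERCC1 window had the lowest count among the 46. Only the first listed start of each gene was used. Any other start of ERCC1 or of the other genes was not examined, so the counts describe these windows alone. Methylation was not measured, and a match says only which letters are present.

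Of 7 signalling and checkpoint genes tested, 4 rose and 1 fell with azacitidine 3 µM in A549 (22.1% and 16.2% of all genes), and 0 rose and 2 fell with decitabine 3 µM (15% and 10.8%). The rises of CHEK1 and TP53BP1 were lost without single arrays, as given with each gene. In H1299 1 of the 7 rose and 2 fell with azacitidine 3 µM (32.3% and 21.6% of all genes). With decitabine 3 µM 0 rose and 3 fell there (16.3% and 14.6%). ATR, the kinase activated by stalled replication forks, was 1084 and 1054 in A549 vehicle, 1490 and 1440 with azacitidine 3 µM, and 897 and 1000 with decitabine 3 µM. In H1299 it was 1264 and 1202, then 1820 and 1852, then 951 and 1079. In both lines the azacitidine arrays lay above vehicle and the decitabine arrays below it. ATR rose with azacitidine by 0.44 in A549 (SE 0.072, adjusted p = 5.1e-05 in limma) and by 0.56 in H1299 (adjusted p = 1.1e-06). With decitabine it differed by -0.17 in A549, which did not pass, and by -0.27 in H1299 (adjusted p = 0.00601), a fall that was lost without H1299 vehicle replicate 1 (-0.24) or decitabine 3 µM replicate 1 (-0.19) and with the mean of both probe sets (-0.13). The second probe set differed by 0.02 there and did not pass. Azacitidine minus decitabine was 0.61 in A549 (adjusted p = 5.62e-07) and 0.84 in H1299 (adjusted p = 3.64e-09), and the second ATR probe set gave 0.52 and 0.82.

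ATM, the kinase activated by double-strand breaks, passed in no comparison with either drug at 3 µM. Its signal was 286 and 249 in A549 vehicle and 179.6 to 269 with either drug at 3 µM, and 420 and 390 in H1299 vehicle against 331 to 431. Azacitidine minus decitabine was 0.13 in A549 (95% interval -0.186 to 0.447) and 0.17 in H1299 (-0.144 to 0.490). In H1299 the other 2 ATM probe sets rose with azacitidine 3 µM, by 0.43 and 0.83, and 1 of them rose with decitabine 3 µM (0.84), whereas the brightest did not.

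MDC1, the adaptor that reads marked chromatin at breaks, rose in A549 with azacitidine 3 µM from 349 and 309 to 492 and 456 (0.49, adjusted p = 0.00054 in limma). It was 239 and 269 with decitabine 3 µM, below vehicle (-0.34, adjusted p = 0.0164), a fall lost without vehicle replicate 1 or decitabine 3 µM replicate 1 (-0.26 in each case). Azacitidine exceeded decitabine by 0.83 in A549 (adjusted p = 7.94e-07). In H1299 MDC1 was 1472 and 1479 in vehicle, 1285 and 1539 with azacitidine 3 µM, and 1178 and 1093 with decitabine 3 µM. The fall with decitabine was 0.37 (difference -0.37, adjusted p = 0.00746) and was lost without decitabine 3 µM replicate 2 (-0.32). The responses to azacitidine differed between lines by -0.56 (adjusted p = 0.00472). The second MDC1 probe set passed in none of these comparisons with vehicle.

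CHEK1, the effector kinase downstream of ATR, was 645 and 487 in A549 vehicle, 803 and 641 with azacitidine 3 µM and 470 and 445 with decitabine 3 µM. The azacitidine arrays overlapped vehicle, and the rise of 0.34 (adjusted p = 0.025 in limma) was lost without vehicle replicate 2 (0.15) or azacitidine 3 µM replicate 1 (0.18). CHEK1 was 0.61 higher with azacitidine than with decitabine in A549 (adjusted p = 0.000163), and the difference in H1299 was -0.11, which did not pass. CHEK2, the kinase downstream of ATM, fell in H1299 with azacitidine 3 µM from 395 and 422 to 248 and 282 (-0.57, adjusted p = 0.000856), while it was 407 and 407 with decitabine 3 µM. TP53BP1, a reader of chromatin at breaks, rose in A549 with azacitidine 3 µM by 0.57 (adjusted p = 0.00511), and not without vehicle replicate 2 (0.36) or azacitidine 3 µM replicate 2 (0.45).

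H2AX, the histone variant that is phosphorylated around breaks, fell at 3 µM of both drugs in both lines by its brightest probe set. In H1299 its signal was 4696 and 4881 in vehicle, 5329 and 5342 with azacitidine 0.3 µM, 3553 and 3647 at 1 µM and 1883 and 1957 at 3 µM. It was 3836 and 3846 with decitabine 3 µM. No treated group at 3 µM overlapped vehicle. The fall with azacitidine 3 µM was 2.47-fold (difference -1.30, SE 0.069, adjusted p = 1.87e-12 in limma), and with decitabine 3 µM the difference was -0.32 (adjusted p = 0.00145). In A549 the differences were -0.56 (adjusted p = 1.94e-06) and -0.30 (adjusted p = 0.00272). The responses to azacitidine differed between lines by -0.75 (adjusted p = 6.19e-06). Of the 2 other H2AX probe sets, both fell with azacitidine 3 µM in H1299 and with decitabine 3 µM in A549. With azacitidine 3 µM in A549 1 of the 2 fell. Neither passed with decitabine 3 µM in H1299 or for the line difference. These are transcript levels, and the phosphorylated protein was not measured.

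**Figure D2:**
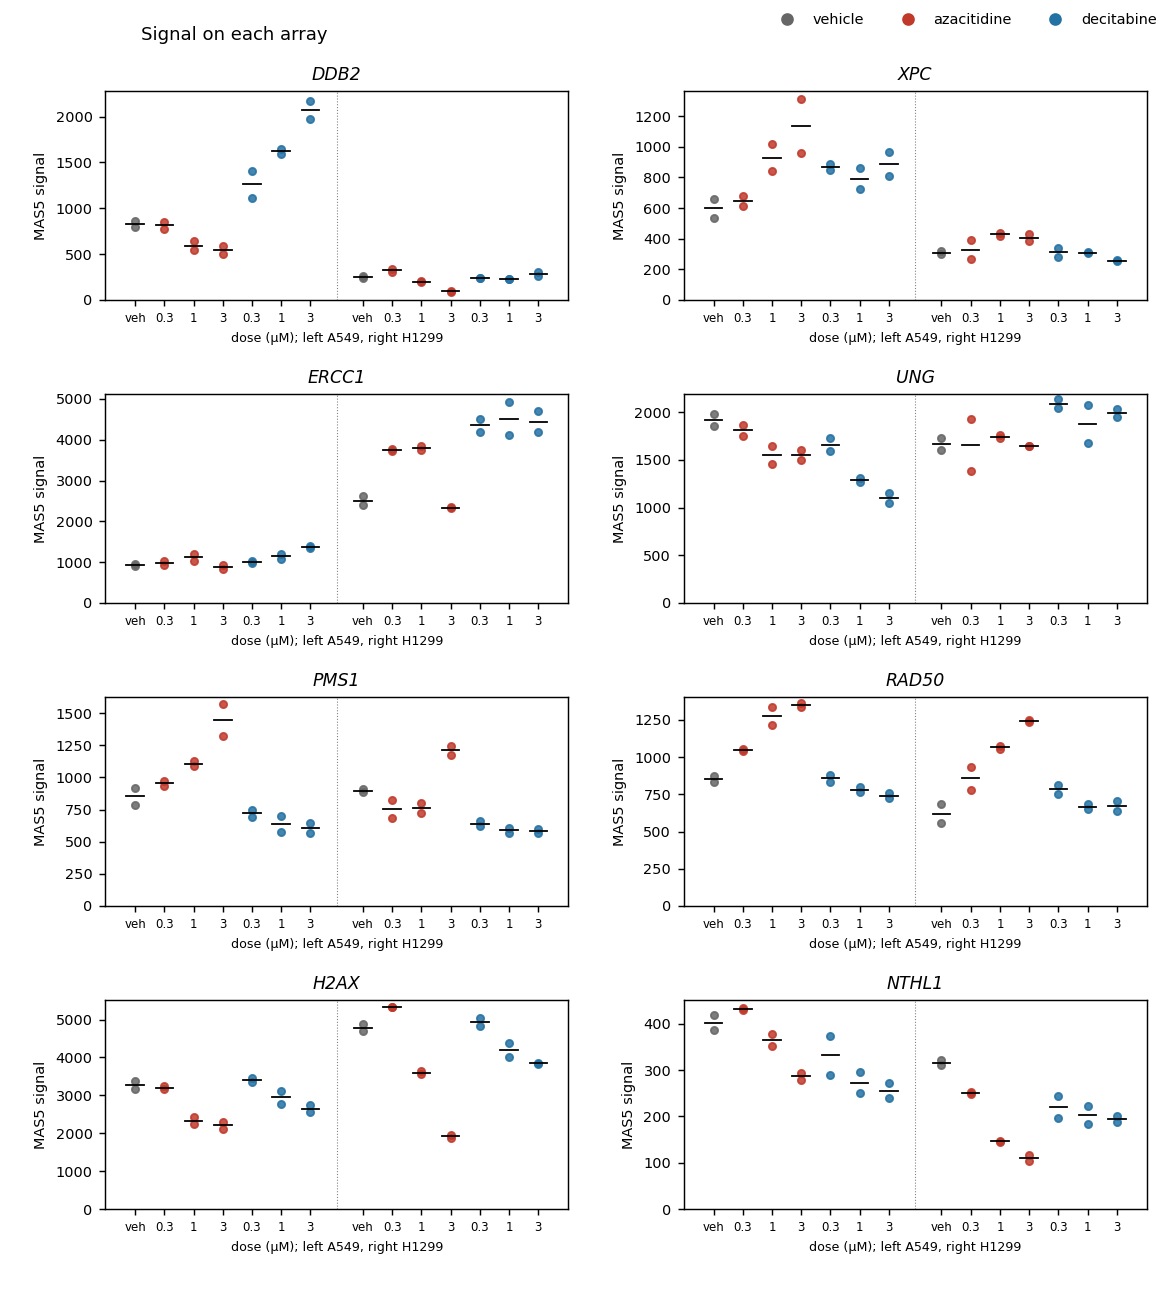
MAS5 signal (linear scale from 0) of 8 repair genes on each array, by dose in µM, with A549 left and H1299 right of the dotted line; points are single arrays (grey vehicle, red azacitidine, blue decitabine) and bars the mean of 2. PMS1 and RAD50 are highest at azacitidine 3 µM in both lines, and UNG declines with decitabine in A549 to 1051 and 1155 at 3 µM.

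Of 7 homologous recombination genes tested, 1 rose and 0 fell with azacitidine 3 µM in A549 (22.1% and 16.2% of all genes) and 1 rose and 3 fell with decitabine 3 µM (15% and 10.8%). In H1299 1 rose and 1 fell with azacitidine (32.3% and 21.6%) and 0 rose and 1 fell with decitabine (16.3% and 14.6%). RAD50, the ATPase that bridges broken ends in the MRE11 complex, was 835 and 872 in A549 vehicle, then 1057 and 1038, 1217 and 1335, and 1363 and 1336 with azacitidine 0.3, 1 and 3 µM. In H1299 it was 555 and 682 in vehicle, then 778 and 936, 1057 and 1074, and 1234 and 1247. At 3 µM decitabine gave 759 and 723 in A549 and 707 and 640 in H1299. Every azacitidine array lay above both vehicle arrays of its line. RAD50 rose with azacitidine 3 µM by 0.64 in A549 (SE 0.092, adjusted p = 1.17e-05 in limma) and by 0.98 in H1299 (adjusted p = 1.46e-08). With decitabine 3 µM the differences of -0.20 and 0.12 did not pass. Azacitidine minus decitabine was 0.84 in A549 and 0.85 in H1299 (adjusted p = 2.19e-07 and 9.94e-08). The other RAD50 probe set rose in A549 with azacitidine 3 µM (0.60) and did not pass in H1299 (0.34).

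BRCA1, which promotes end resection and strand exchange, fell in A549 with decitabine 3 µM from 1326 and 1286 to 669 and 907 (-0.72, SE 0.121, adjusted p = 0.000159 in limma). It was 1404 and 1491 with azacitidine 3 µM, above vehicle by 0.14, which did not pass. The other BRCA1 probe set gave -0.40 with decitabine, which did not pass. In H1299 BRCA1 was 637 and 689 in vehicle and 581 and 578 with decitabine 3 µM (-0.18, not passing). The responses to decitabine differed between lines by 0.54 (adjusted p = 0.0329), a difference that did not pass without A549 vehicle replicate 1 (0.52) or 2 (0.56), A549 decitabine 3 µM replicate 1 (0.33), H1299 vehicle replicate 1 (0.48), or H1299 decitabine 3 µM replicate 1 (0.53) or 2 (0.54).

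RAD51C, which acts in strand exchange, went the other way in A549 with decitabine. Its signal was 1044 and 1126 in vehicle, 1356 and 1556 at 1 µM and 1731 and 1591 at 3 µM, both doses above vehicle. The difference at 3 µM was 0.60 (SE 0.080, adjusted p = 1.18e-05 in limma), and the other RAD51C probe set rose by 0.37. In H1299 RAD51C was 1461 and 1340 in vehicle and 1380 and 1284 with decitabine 3 µM, so the groups overlapped. The responses to decitabine differed between lines by -0.67 (adjusted p = 0.000296). XRCC2 fell in H1299 with decitabine 3 µM by 0.57 (difference -0.57, adjusted p = 0.0485), and this was lost without any 1 of the 4 arrays compared (-0.44 to -0.69). XRCC3 was below the array median on all 14 A549 arrays, at 5.03 to 79.1, and its drug difference in H1299 of 0.89 (adjusted p = 0.0324) was likewise lost without any 1 array (0.74 to 1.04).

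The RecQ helicases, which unwind structured DNA at forks, each had a pattern of its own. WRN was 411 and 337 in A549 vehicle, 590 and 539 with azacitidine 3 µM and 287 and 277 with decitabine 3 µM. In H1299 it was 237 and 177, then 392.2 and 419.7, then 217 and 257. In both lines azacitidine was above the other groups. WRN rose with azacitidine 3 µM by 0.56 in A549 (adjusted p = 0.0178 in limma) and by 0.88 in H1299 (adjusted p = 0.000284). The rise in A549 was lost without vehicle replicate 2 (0.43) or azacitidine 3 µM replicate 1 (0.50), while azacitidine minus decitabine held in A549 (0.93, adjusted p = 0.000232) and in H1299 (0.71, adjusted p = 0.00217).

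BLM fell with decitabine in A549, from 459 and 503 in vehicle to 321 and 326 at 1 µM and 304 and 310 at 3 µM (-0.60 at 3 µM, SE 0.106, adjusted p = 0.000274 in limma). It was 533 and 548 with azacitidine 3 µM. In H1299 BLM was 395 and 426 in vehicle and 400 and 423 with decitabine 3 µM, and the responses differed between lines by 0.60 (adjusted p = 0.00789). RECQL fell with both drugs at 3 µM in both lines: by 0.41 and 0.55 in A549 (differences -0.41 and -0.55, azacitidine and decitabine) and by 0.40 and 0.48 in H1299 (-0.40 and -0.48). Azacitidine minus decitabine for RECQL was 0.13 in A549 (95% interval -0.163 to 0.424) and 0.08 in H1299 (-0.213 to 0.374). Each RECQL fall was lost without vehicle replicate 1 of its line (-0.24 and -0.37 in A549, -0.32 and -0.40 in H1299), and each also without at least 1 treated array (A549 azacitidine replicate 2, -0.23; A549 decitabine replicate 1, -0.40; H1299 azacitidine replicate 1 or 2, -0.41 and -0.39; H1299 decitabine replicate 1, -0.34).

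Of the Fanconi anaemia genes, which unhook crosslinks, 4 were tested. FANCE, a core complex subunit, rose in A549 with azacitidine, from 85.4 and 82.8 in vehicle to 159 and 162 at 1 µM and 179 and 181 at 3 µM (0.87, SE 0.152, adjusted p = 0.000112 in limma). In H1299 it was 359 and 343 in vehicle, far above A549, and 340 and 260 with azacitidine 3 µM (-0.22, not passing). The responses differed between lines by -1.09 (adjusted p = 0.000578). FANCE was below the array median on both A549 vehicle arrays, so the sizes depend on the processing. Over the alternatives the A549 rise ran from 0.54 to 1.09 and the line difference from -1.33 to -0.71. FANCI, which is ubiquitinated with FANCD2, fell in H1299 with azacitidine 3 µM from 1322 and 1316 to 739 and 704 (-0.84, adjusted p = 8.58e-08), and its second probe set fell by 0.64 (-0.64). In A549 FANCI differed by -0.27 with either drug at 3 µM; both falls were lost without vehicle replicate 1 (-0.21 and -0.21), and each without a treated array (azacitidine replicate 2, -0.13; decitabine replicate 1, -0.20). FANCG, another core subunit, was 616 and 590 in H1299 vehicle, 440 and 395 with azacitidine 3 µM and 389 and 348 with decitabine 3 µM, falls of -0.50 and -0.67 (adjusted p = 0.00138 and 0.000237).

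Of 5 end joining genes tested, 4 fell and 1 rose in H1299 with azacitidine 3 µM, where all genes also changed most often (21.6% lower and 32.3% higher). In each of the other 3 comparisons with vehicle at 3 µM 1 fell and 0 rose, with 10.8% to 16.2% of all genes lower and 15% to 22.1% higher. PRKDC, the DNA-dependent protein kinase, was 7075 and 7258 in H1299 vehicle and 5533 and 5560 with azacitidine 3 µM (-0.37, adjusted p = 0.000759 in limma), and quantile normalization ended that call (-0.19). In A549 PRKDC differed by -0.25 with each drug; both falls were lost without vehicle replicate 1 (-0.17 and -0.16), and each without a treated array (azacitidine replicate 2, -0.18; decitabine replicate 1, -0.14). LIG4, the ligase of end joining, rose in H1299 with azacitidine 3 µM from 62.1 and 69.3 to 159 and 127 (0.84, SE 0.209, adjusted p = 0.00188). It was 86.8 and 108 with decitabine 3 µM (0.40, not passing). LIG4 was below the array median on every A549 array and on both H1299 vehicle arrays. It passed the brightness filter through treated H1299 arrays alone, so its rise is weakly supported.

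Of 11 base excision and single-strand break genes tested, 1 rose and 3 fell with azacitidine 3 µM in A549 (22.1% and 16.2% of all genes) and 1 rose and 4 fell with decitabine 3 µM (15% and 10.8%). In H1299 2 rose and 5 fell with azacitidine 3 µM (32.3% and 21.6%), and 1 rose and 4 fell with decitabine 3 µM (16.3% and 14.6%). NTHL1, a glycosylase for oxidised pyrimidines, was 311 and 322 in H1299 vehicle, then 249 and 252, 147 and 145, and 116 and 103 with azacitidine 0.3, 1 and 3 µM, and 196 and 243, 184 and 223, and 188 and 202 with decitabine. Every treated array lay below vehicle. The difference with azacitidine 3 µM was -1.30 (SE 0.128, adjusted p = 2.53e-08 in limma) and with decitabine 3 µM -0.62 (adjusted p = 0.000871). In A549 it went from 418 and 387 to 279 and 294 with azacitidine 3 µM (-0.45, adjusted p = 0.00834) and to 272 and 239 with decitabine 3 µM (-0.60, adjusted p = 0.00152). The fall with azacitidine in A549 was lost without vehicle replicate 1 (-0.39) or azacitidine 3 µM replicate 1 (-0.41). NTHL1 responses to azacitidine differed between lines by -0.86 (adjusted p = 0.00105).

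UNG, the glycosylase that removes uracil, was 1860 and 1977 in A549 vehicle. With decitabine it was 1593 and 1727 at 0.3 µM, 1264 and 1308 at 1 µM, and 1051 and 1155 at 3 µM, each group below vehicle. Its signal with azacitidine 3 µM was 1608 and 1504. The differences at 3 µM were -0.78 with decitabine (SE 0.113, adjusted p = 2.95e-05 in limma) and -0.30 with azacitidine (adjusted p = 0.0425), the latter lost without any 1 of the 4 arrays compared (-0.25 to -0.34). In H1299 UNG was 1727 and 1600 in vehicle and 1948 and 2030 with decitabine 3 µM, a difference of 0.25 that did not pass. The responses to decitabine differed between lines by 1.04 (SE 0.159, adjusted p = 0.000113).

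The poly(ADP-ribose) polymerases moved apart with azacitidine. PARP1, the main break sensor of the family, fell in A549 from 1043 and 1082 to 723 and 764 at 3 µM (-0.50, adjusted p = 4.9e-05 in limma) and in H1299 from 912 and 945 to 517 and 552 (-0.76, adjusted p = 7.83e-08). PARP2, its smaller relative, rose in A549 from 933 and 949 to 1120 and 1171 (0.27, adjusted p = 0.00134) and in H1299 from 926 and 969 to 1417 and 1471 (0.59, adjusted p = 6.58e-08). With decitabine 3 µM PARP2 was 714 and 693 in A549 (-0.40, adjusted p = 5.81e-05) and 826 and 814 in H1299 (-0.20, adjusted p = 0.0172). Each of these PARP1 and PARP2 groups lay clear of vehicle. PARP2 differed between the drugs by 0.68 in A549 and 0.79 in H1299 (adjusted p = 1.67e-08 and 8.11e-10), and its other 2 probe sets by 0.74 and 0.82, and by 0.84 and 0.92. The fall of PARP2 with decitabine in H1299 was lost without vehicle replicate 2 (-0.17) or decitabine 3 µM replicate 1 (-0.21) or 2 (-0.19). PARP1 differed by -0.30 and -0.60 between the drugs, and the former was lost without A549 decitabine 3 µM replicate 2 (-0.23).

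TDP1, which frees proteins stuck to DNA ends, fell in H1299 with every decitabine dose and with azacitidine 1 and 3 µM. Its signal was 1022 and 817 in vehicle, 491 and 436 with azacitidine 1 µM, 502 and 482 with azacitidine 3 µM, and 527 to 608 on the 6 decitabine arrays, all below vehicle. The differences at 3 µM were -0.85 (SE 0.140, adjusted p = 2.58e-05 in limma) and -0.62 (adjusted p = 0.00182). In A549 TDP1 differed by -0.13 and -0.33, and neither passed. The responses to azacitidine differed between lines by -0.72 (adjusted p = 0.00845), which was lost without A549 azacitidine 3 µM replicate 1 (-0.52) or H1299 vehicle replicate 1 (-0.56). APEX1, the endonuclease at abasic sites, fell in H1299 with azacitidine 3 µM from 1779 and 1936 to 1166 and 1344 (-0.56, adjusted p = 1.04e-05), while it was 3606 and 3881 in A549 against 3380 and 3830 in vehicle. POLB, the gap-filling polymerase, which is outside the naming rule and was chosen after its values were seen, rose with decitabine 3 µM in both lines (0.41 and 0.42) and with azacitidine 3 µM in H1299 (0.42). Azacitidine minus decitabine for POLB was -0.01 in H1299 (95% interval -0.223 to 0.211).

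Of the 3 mismatch repair genes, PMS1, a MutL family protein, had the largest gap between the drugs of any repair gene that was higher with azacitidine. Its signal in A549 was 917 and 788 in vehicle, 1575 and 1319 with azacitidine 3 µM and 565 and 644 with decitabine 3 µM. In H1299 it was 886 and 909, then 1245 and 1176, then 602 and 570. The 3 groups did not overlap in either line. PMS1 rose with azacitidine 3 µM by 0.74 in A549 (SE 0.109, adjusted p = 1.57e-05 in limma) and 0.42 in H1299 (adjusted p = 0.00255), and it fell with decitabine 3 µM by 0.47 (difference -0.47, adjusted p = 0.00267) and 0.59 (-0.59, adjusted p = 0.000302). In H1299 the fall was already -0.47 at decitabine 0.3 µM, where the 2 arrays gave 658 and 621. Azacitidine minus decitabine was 1.21 in A549 and 1.01 in H1299 (adjusted p = 1.29e-08 and 1.01e-07). Median centring took the H1299 rise out of the calls (0.24), and the A549 fall was lost without vehicle replicate 1 (-0.37) or decitabine 3 µM replicate 1 (-0.39).

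MSH6, a subunit of the complex that recognises mismatches, fell with decitabine 3 µM in A549 from 3104 and 3704 to 2502 and 2463 (-0.45, adjusted p = 0.00126 in limma) and in H1299 from 3345 and 3409 to 2146 and 2118 (-0.66, adjusted p = 1.57e-05). With azacitidine 3 µM MSH6 fell in H1299 to 2374 and 2567 (-0.45) and was 3676 and 3679 in A549, which did not pass. The responses to azacitidine differed between lines by -0.56 (adjusted p = 0.00257). The other MSH6 probe set did not pass in any of the 4 comparisons with vehicle at 3 µM.

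The drugs were compared directly at each dose in each line, with p-values adjusted over all 8024 genes. In A549 azacitidine exceeded decitabine for 3 repair genes and was below it for 1 at 0.3 µM (2.07% and 3.63% of all genes), for 13 and 4 at 1 µM (16.4% and 17.9%), and for 16 and 6 at 3 µM (26.6% and 23.8%). In H1299 the counts were 3 and 0 at 0.3 µM (2.36% and 4.03%), 6 and 8 at 1 µM (19% and 15%), and 9 and 14 at 3 µM (33% and 23.3%). The median difference at 3 µM was 0.187 in A549, against 0.059 over all genes, and -0.043 in H1299, against 0.102. The genes at 0.3 µM in A549 were BRCA1 (0.47), PMS1 (0.39), PARP2 (0.25) and DDB2 (-0.61). In H1299 they were DDB2 (0.39), MSH6 (0.34) and PARP2 (0.27). DDB2 was thus lower with azacitidine in A549 and higher in H1299 at the lowest dose. The 4 in A549 became 0, 1, 0 and 2 as azacitidine replicate 1 or 2 or decitabine replicate 1 or 2 was left out. The 3 in H1299 became 1 without azacitidine 0.3 µM replicate 2 and 0 without decitabine 0.3 µM replicate 2, and the 14 at 1 µM in H1299 became 8 without azacitidine 1 µM replicate 1 or without decitabine 1 µM replicate 2. Median centring gave 6 and 19 in H1299 at 3 µM, with 23.8% of all genes higher and 31.6% lower.

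**Figure D3:**
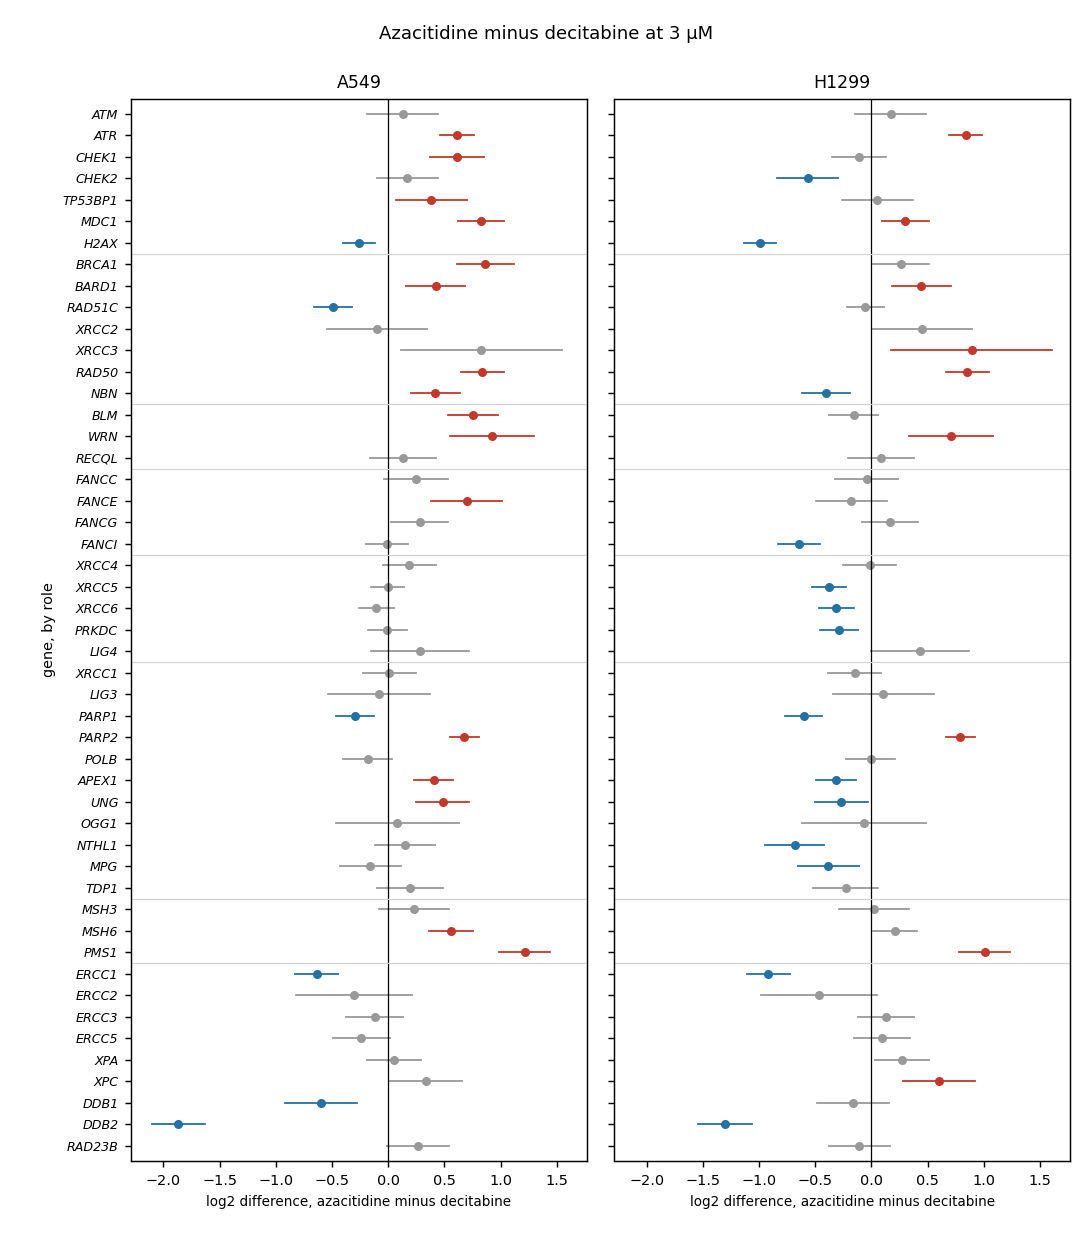
Azacitidine minus decitabine at 3 µM for 49 repair genes in A549 (left) and H1299 (right), as a log2 difference on the log2(signal + 32) scale with its 95% interval; red and blue mark an adjusted p under 0.05 and grey the rest. PMS1, ATR, RAD50, WRN and PARP2 are above 0 in both lines, and DDB2 is farthest below 0 in both, at -1.87 and -1.30.

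Within each drug, 3 µM was set against 0.3 µM. With azacitidine 7 repair genes were higher and 4 lower at the higher dose in A549 (21% and 13.4% of all genes), and 9 were higher and 17 lower in H1299 (33.7% and 21.8%). With decitabine 3 were higher and 6 lower in A549 (5.67% and 3.2%), and 1 was higher and 4 lower in H1299 (5.67% and 4.26%). For ERCC1 in H1299 decitabine 3 µM minus 0.3 µM was 0.03 (95% interval -0.164 to 0.219), and 0.27 by its second probe set, which did not pass. With azacitidine in H1299 ERCC1 fell from 0.3 to 3 µM by 0.68 (difference -0.68, adjusted p = 2.4e-06 in limma) and H2AX by 1.46 (-1.46), while the second ERCC1 probe set did not pass (-0.14). The 5 genes that differed with decitabine in H1299 became 2, 3, 1 and 2 as decitabine 0.3 µM replicate 1 or 2 or decitabine 3 µM replicate 1 or 2 was left out. These splits for azacitidine depend on the scaling. Median centring gave 5 higher and 12 lower in A549 (12.4% and 19.9% of all genes) and 4 higher and 25 lower in H1299 (21.4% and 33.2%).

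The responses at 3 µM were compared between lines by an interaction contrast. With azacitidine the response was higher in H1299 for 2 repair genes and lower for 15 (17.5% and 13.9% of all genes), so the 15 are a larger share than the background. With decitabine it was higher for 3 and lower for 3 (7.9% and 9.42%). XPA (0.64) and PARP2 (0.32) were the 2 higher with azacitidine, and FANCE (-1.09), NTHL1 (-0.86), H2AX (-0.75) and TDP1 (-0.72) had the lowest values. With decitabine UNG (1.04), BLM (0.60) and BRCA1 (0.54) were higher in H1299, and DDB2 (-1.15), XPC (-0.78) and RAD51C (-0.67) were lower. Median centring gave 1 higher and 20 lower with azacitidine, with 13.1% of all genes higher and 18% lower, and took PARP2 out of the calls.

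**Figure D4:**
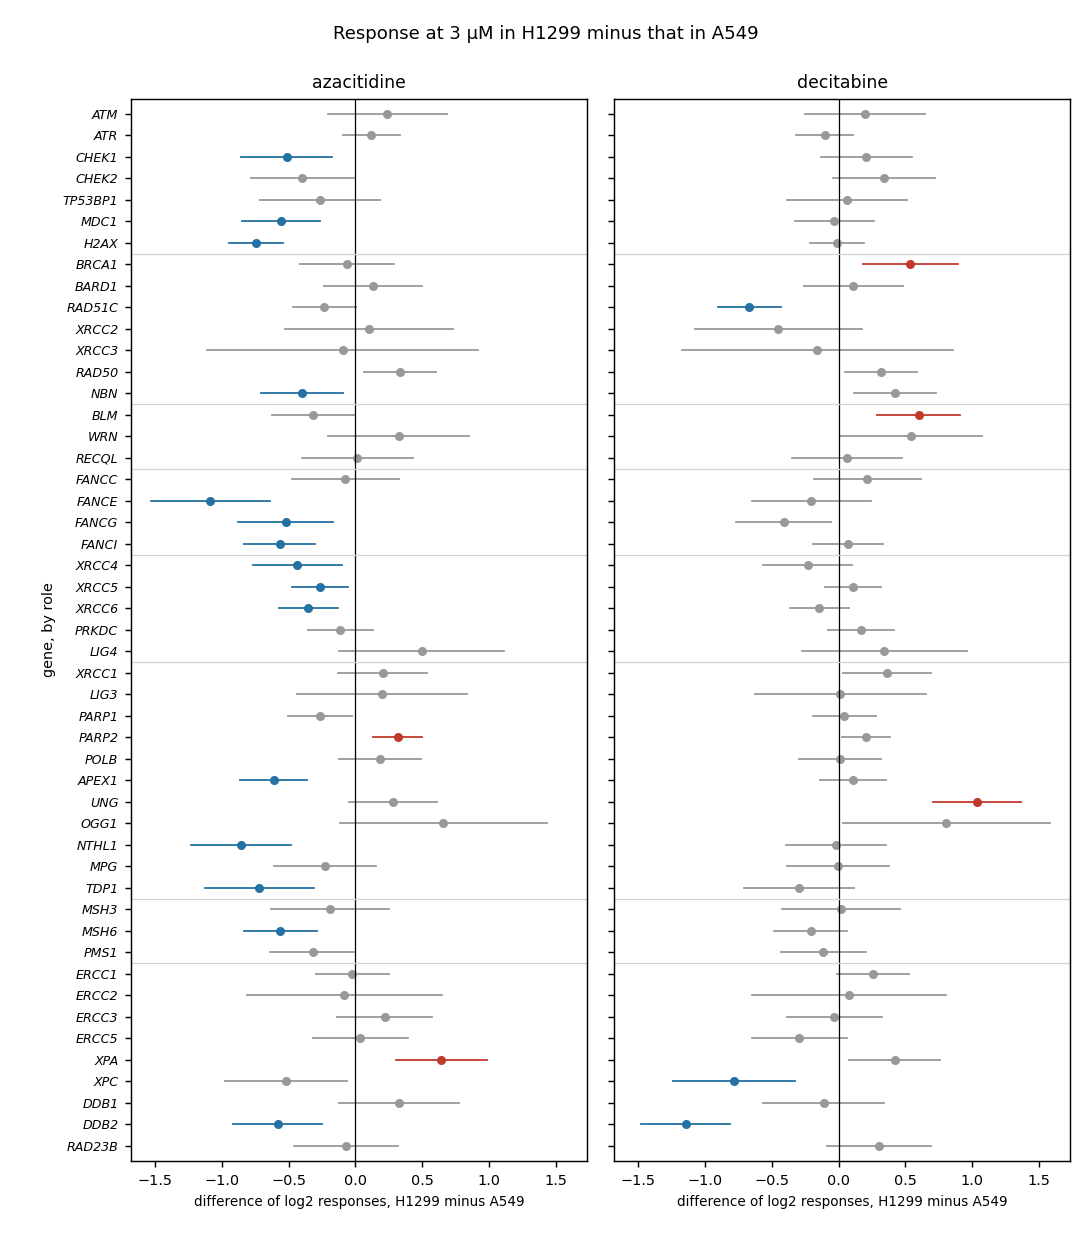
Response at 3 µM in H1299 minus that in A549 for 49 repair genes, with azacitidine (left) and decitabine (right), as a difference of log2 responses with its 95% interval; red and blue mark an adjusted p under 0.05. With azacitidine most marked genes lie left of 0, and with decitabine UNG is farthest to the right (1.04) and DDB2 farthest to the left (-1.15).

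Among the repair genes, a group is known to be transcribed mainly toward S phase: BRCA1, BARD1, BLM, CHEK1, FANCI, XRCC2, MSH6 and UNG were tested. In A549 with decitabine 3 µM 6 of these 8 fell and 0 rose (10.8% and 15% of all genes), with a median of -0.398 against 0.009 over all genes; CHEK1 and XRCC2 were the 2 that did not pass. In A549 with azacitidine 3 µM 1 rose and 2 fell (22.1% and 16.2%). In H1299 2 of 8 fell and 0 rose with each drug at 3 µM, where 21.6% of all genes fell with azacitidine and 14.6% with decitabine. Proliferation markers were read beside them: CCNA2 (-0.69) and MCM2 (-0.88) fell and MKI67 (-0.09), TOP2A (-0.16), CCNB1 (-0.04) and PCNA (0.05) did not pass with decitabine in A549. With azacitidine 3 µM in H1299 all 6 fell, TOP2A by 1.78 (-1.78) and PCNA by 1.16 (-1.16), and 5 of 6 fell in A549. The part of cell cycle stage in the repair gene values was not tested.

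Before any drug, H1299 vehicle and A549 vehicle differed for 36 of the 49 repair genes, 24 higher and 12 lower in H1299, where 32.9% of all genes were higher and 32.4% lower. MDC1 was highest relative to A549 (2.06, adjusted p = 7.9e-14 in limma), with 1472 and 1479 against 349 and 309. FANCE (1.72), ERCC2 (1.71), ERCC1 (1.41) and TDP1 (1.19) followed. ERCC2 was below the array median on every A549 array. It passed the brightness filter through H1299 alone, so its difference is weakly supported. FANCE was below the array median on both A549 vehicle arrays. OGG1, the glycosylase for oxidised guanine, was lowest (-1.66, adjusted p = 1.11e-05), with 46.2 and 146 against 327 and 356, followed by DDB2 (-1.60), BRCA1 (-0.95) and APEX1 (-0.94). On H1299 vehicle replicate 1 OGG1 was below the array median (102), and the replicates lay far apart, so its size is uncertain. The other kept probe set of OGG1 was also lower in H1299. OGG1 and ERCC2 are outside the naming rule and were chosen after their values were seen.

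Among other genes of these pathways, 57 of 87 listed were tested. In A549 13 rose and 7 fell with azacitidine 3 µM (22.1% and 16.2% of all genes), and 5 rose and 11 fell with decitabine 3 µM (15% and 10.8%). In H1299 25 rose and 10 fell with azacitidine 3 µM (32.3% and 21.6%), and 7 rose and 11 fell with decitabine 3 µM (16.3% and 14.6%). GADD45A, a stress-induced repair and checkpoint factor, rose with azacitidine 3 µM in both lines (1.12 and 1.47) and with decitabine 3 µM in A549 (0.92), and its difference in H1299 with decitabine was 0.10. POLI, a translesion polymerase, rose with azacitidine 3 µM in both lines (0.70 and 1.25). RPA3, a subunit of the single-strand binding complex, fell with azacitidine 3 µM in both lines (-0.70 and -1.42), and LIG1, the replicative ligase, fell with it as well (-0.54 and -1.38). With decitabine 3 µM in A549 the glycosylase NEIL3 (-0.78), the nuclease EXO1 (-0.78) and the mismatch repair gene MLH3 (-0.70) fell.

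HUS1, a clamp subunit that helps activate ATR, stood out in H1299. Its signal was 23.0 and 45.6 in H1299 vehicle, 116 and 120 with decitabine 0.3 µM, 151 and 164 at 1 µM and 166 and 160 at 3 µM, and 119.5 and 96.5 with azacitidine 3 µM. All of these lay above vehicle. In A549 HUS1 was 421 and 404 in vehicle and 302 to 492 with either drug at 3 µM. The differences in H1299 were 1.58 with decitabine 3 µM and 1.09 with azacitidine 3 µM (adjusted p = 4.46e-07 and 1.44e-05 in limma), and the responses differed between lines by 1.41 and 1.34. FANCF, a Fanconi core subunit, had 13.3 and 37.8 in H1299 vehicle and 90.1 and 90.7 with decitabine 3 µM (1.12, adjusted p = 0.00299 in limma), and 383 and 235 in A549 vehicle. FANCF was below the array median on every H1299 array and passed the brightness filter through A549 alone, so its H1299 values are weakly supported. HUS1 was dim in untreated H1299, so its fold depends on the pseudocount.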

How the data were processed

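RNA of 28 samples was measured on Affymetrix arrays, from 100 ng of total RNA per the labels' protocols. The deposited intensities are MAS5 signals on a linear scale, per the submitters' processing notes, and the MAS5 version is not given in the sources used here. The files hold no read depth, and the number of arrays limits precision.

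Of 22277 probe sets, 19070 named 1 gene. Those above the array median on at least 2 arrays were kept (11806), and the brightest stood for its gene, which left 8024 genes. limma 3.58.1 in R 4.3.3 was fitted to log2(signal + 32) with 1 mean per group over all 28 arrays (14 residual degrees of freedom, eBayes with trend). Benjamini-Hochberg adjustment ran over 8024 genes at 0.05, in 25 comparisons. Tests were checked on simulated data.

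The members and lists were chosen with earlier results of these data known. Members called with an absolute log2 difference of at least 0.5 at 3 µM (against vehicle, between drugs or between lines) were named, with ATM, ATR, CHEK1, PRKDC, PARP1, UNG, DDB2 and XPC, and up to 4 other repair genes per direction and comparison. Alternatives changed the pseudocount, filter, probe set rule, scaling, trend, samples fitted and arrays left out. Replicate numbers did not pair the samples: deviations of same-numbered arrays correlated at -0.245 to 0.266 over 21 pairs of groups in A549 and -0.0784 to 0.156 in H1299. Start-site sequences are RefSeq's on GRCh38.p14, and only the first listed start of each gene was used. Some genes of these pathways are not reported here.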

Additional observations from a re-analysis of the deposited data

Results flagged for a closer look

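The response at 3 µM differed between the lines for 23 pairs of gene and drug, by an interaction contrast in limma with an adjusted p under 0.05 (n = 2 arrays per group). All values are the H1299 response minus the A549 response in log2. With azacitidine the response was lower in H1299 for FANCE (-1.09), NTHL1 (-0.86), H2AX (-0.75), TDP1 (-0.72), APEX1 (-0.61), DDB2 (-0.58), FANCI (-0.57), MSH6 (-0.56), MDC1 (-0.56), FANCG (-0.52), CHEK1 (-0.51), XRCC4 (-0.43), NBN (-0.40), XRCC6 (-0.35) and XRCC5 (-0.27). It was higher for XPA (0.64) and PARP2 (0.32). With decitabine it was lower in H1299 for DDB2 (-1.15), XPC (-0.78) and RAD51C (-0.67), and higher for UNG (1.04), BLM (0.60) and BRCA1 (0.54).

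The value for CHEK1 did not pass without A549 vehicle replicate 2 (-0.32), A549 azacitidine 3 µM replicate 1 (-0.36), H1299 vehicle replicate 2 (-0.49) or H1299 azacitidine 3 µM replicate 2 (-0.46). That for FANCG did not pass without A549 vehicle replicate 2 (-0.42), A549 azacitidine 3 µM replicate 2 (-0.48), H1299 vehicle replicate 1 (-0.49) or H1299 azacitidine 3 µM replicate 2 (-0.45). XRCC4, XRCC5, XRCC6 and NBN were named after their values were seen, and 1 of the 3 other NBN probe sets rose with azacitidine 3 µM in H1299 (0.61) where the brightest fell (-0.32).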

How the results depend on the processing

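Of 125 calls on the named genes, 85 were kept under every alternative and 40 were lost under at least 1, of which 12 only by leaving out 1 array. Calls that were also lost without both A549 arrays of highest lower quartile are not among the 12. A left-out array leaves its group with 1 array, assumed to vary like the other groups. The mean of all kept probe sets turned ATM in H1299 with decitabine 3 µM from -0.17 to 0.36, and H2AX in A549, azacitidine minus decitabine at 3 µM, from -0.26 to 0.033.

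Asking for an absolute log2 difference of at least 0.5 lowered the member counts for azacitidine 1 and 3 µM to 5 and 8 in A549, for decitabine 1 and 3 µM to 4 and 9, and in H1299 to 2, 6 and 14 for azacitidine 0.3, 1 and 3 µM and 2, 5 and 7 for decitabine. For azacitidine minus decitabine it gave 1, 9 and 14 in A549 and 0, 2 and 14 in H1299, and for 3 against 0.3 µM 6 and 3 in A549 (azacitidine, decitabine) and 16 and 0 in H1299. A fit to 1 line gave 10 for A549 azacitidine 1 µM, 1 for A549 decitabine 0.3 µM, 3 for H1299 azacitidine 0.3 µM and 2 for the drug difference at 0.3 µM in A549. A pseudocount of 1, no filter and no trend each gave 1 for A549 decitabine 0.3 µM. Without both A549 arrays that stand apart, an alternative chosen after seeing the data, A549 gave 10 for azacitidine 1 µM and 7 and 14 for decitabine 1 and 3 µM. Median centring gave 17 for azacitidine 3 against 0.3 µM in A549, and the mean of probe sets 3 for decitabine in H1299.

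Leaving out 1 array at a time gave 7 to 10 calls for A549 azacitidine 1 µM, 0 to 2 for 0.3 µM, and 0 to 3, 6 to 9 and 13 to 19 for decitabine 0.3, 1 and 3 µM. In H1299 it gave 1 to 4 and 12 to 15 for azacitidine 0.3 and 1 µM, and 2 to 7 and 6 to 10 for decitabine 0.3 and 1 µM. The drug difference gave 0 to 2 in A549 at 0.3 µM, and 0 to 3 and 8 to 14 in H1299 at 0.3 and 1 µM, and decitabine 3 against 0.3 µM in H1299 gave 1 to 3. The line differences gave 12 to 15 with azacitidine and 4 to 8 with decitabine, and the vehicles 30 to 31. With a replicate block the counts at 3 µM were 19 and 24 in A549 and 26 and 15 in H1299 (azacitidine, decitabine), and no member count moved by over 1.5 times. The cause of these changes was not tested.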
